A study of Mus musculus with 4 samples.

Results

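The EGF ligands and their ErbB receptors were followed across 4 arrays of mouse mammary tissue. The set has 10 genes, namely the receptors Egfr, Erbb2 and Erbb3 and the ligands Egf, Areg, Ereg, Hbegf, Tgfa, Btc and Nrg1, and its members were all probe sets named for one of them. Of the 10 genes, 8 had a named probe set, 17 probe sets in all, among 12394 named genes and 22690 probe sets. Areg and Nrg1 had none in the annotation used and were not analysed here. The tissue came from female, nulliparous mice of C57BL/6 background kept on standard chow, either Sca-1 KO or age-matched wild-type (WT) littermates. Sca-1 sits on the surface of many stem and progenitor cells and serves to sort them, and its own level was not analysed here. The 4 groups were MP-DMBA mammary tumors of Sca-1 KO mice, MP-DMBA mammary tumors of WT mice, mammary glands of Sca-1 KO mice at 6 weeks and mammary glands of WT mice at 6 weeks. Tumor-bearing mice had received MP (Depo-Provera, a long-acting progestin) at 15 mg subcutaneously and then DMBA, a chemical carcinogen, at 1 mg by gavage once a week for 4 doses. The labels give no age for the tumor-bearing mice, and the glands' own group labels name no carcinogen. Each group was RNA pooled from 5 mice on 1 array. There were therefore no replicates, no test was possible, and each difference below is a difference between 2 arrays.

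ErbB receptors are membrane tyrosine kinases that pair up when an EGF-like ligand binds. Egf, Tgfa and Areg bind EGFR, Hbegf, Btc and Ereg bind both EGFR and ErbB4, and neuregulins bind ErbB3 and ErbB4, while ErbB2 binds no ligand and acts as the favoured partner of the others. Most ligands are made as membrane proteins and released by ADAM proteases, after which the receptors signal through Ras-MAPK and PI3K-Akt. In the mammary gland this system drives the growth of ducts at puberty, and ErbB2 is a well-known oncogene of breast tumors.

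The arrays held 22690 probe sets with median signals of 153.35 in the KO tumor, 150.8 in the WT tumor, 199.3 in the KO gland and 166.5 in the WT gland, and their number limits the precision. Differences are given on the scale log2(signal + 27.3), which understates differences of dim genes, and a difference was called at 2-fold, a value of 1 in size. Where a gene had several probe sets, the one with the highest mean log2 value stood for it. A signal below 168.1, the median of all values, is called below the floor. As a gauge of measurement error, the log2 differences of 2 probe sets of the same gene were compared over 2766 genes. The median gap was 0.17 for KO against WT tumor, 0.24 for KO against WT gland, 0.45 for tumor against gland in KO mice and 0.49 in WT mice. Variation from mouse to mouse or pool to pool is outside this gauge. Signs of RNA integrity differed, since the Actb control signal of the 3' end over that of the 5' end was between 1.23 and 1.29 in the tumors, against 1.61 in the KO gland and 2.35 in the WT gland. Uty, Kdm5d and Eif2s3y, Y-linked genes that female tissue lacks, had signals between 0.5 and 36.7. The part of either in the results below was not tested.

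The tissue label was checked against markers. Of 11 measured luminal markers, 9 reached the floor on each array. Krt8, a keratin of luminal cells, had signals of 9811.2 in the KO tumor, 9258.1 in the WT tumor, 4986.7 in the KO gland and 6398.1 in the WT gland. The summed signal of the luminal list was 55654, 48786, 27634 and 33906 on these arrays in the same order, and that of 9 basal and myoepithelial markers was 31851, 36137, 10693 and 10514. Both lists were thus brighter in the tumors. Markers of fat and skeletal muscle were much dimmer in the tumors. The summed signal of 6 adipocyte markers was 3807.1 in the KO tumor and 5113.8 in the WT tumor, against 40572 in the KO gland and 43177 in the WT gland. That of 8 skeletal muscle markers was 712.1 and 261.2 in the KO and WT tumor, against 44544 and 45897 in the KO and WT gland. No marker of any list was at 0. The part of these shifts in the levels of ligands and receptors was not tested, and in such bulk RNA fewer cells of a type and less RNA per cell cannot be told apart.

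The receptors differed little between the arrays. By the probe sets that stand for them, all 3 were above the floor on all 4 arrays, and none reached a 2-fold difference in any comparison. Erbb3, the kinase-impaired receptor of neuregulins, had signals of 1321.4 in the KO tumor, 1079.1 in the WT tumor, 1122.9 in the KO gland and 1148.6 in the WT gland. Its whole range over the arrays was 0.29 on the log2 scale, from the WT tumor to the KO tumor, which is beyond the gauge of 0.17 for that pair. No 2 neighbours in the order of the arrays differed by more than the gauge. For neighbours unlike in both tissue and genotype the largest gauge, 0.49, was used. This rests on 1 probe set, since the other, 1452482_at, had signals between 1.6 and 2.7, at the bottom of every array.

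Erbb2, the receptor without a ligand, had signals of 267.0 in the KO tumor, 249.8 in the WT tumor, 217.4 in the KO gland and 178.4 in the WT gland. Both tumors lay above both glands, by 0.27 in KO mice and 0.43 in WT mice on the log2 scale. Both differences were smaller than the gauge, but both passed it under the between-array normalizations, with 0.60 and 0.56 under a common median, 0.53 and 0.52 under quantile normalization and 0.48 and 0.51 under cyclic loess. The 2 glands, at 0.25, differed by slightly more than their gauge of 0.24. Under the same normalizations, in the same order, that difference was 0.02, 0.05 and 0.10, within the gauge.

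Egfr, the receptor of EGF itself, had 5 probe sets. The brightest, 1424932_at, had signals of 451.3 in the KO tumor, 376.1 in the WT tumor, 480.2 in the KO gland and 528.5 in the WT gland. The second, 1460420_a_at, had signals of 239.4, 264.9, 410.0 and 355.5 in the same order. In both, each tumor was below the gland of its own genotype. The differences of tumor against gland were -0.08 in KO mice and -0.46 in WT mice by the first probe set, and -0.71 and -0.39 by the second. Of these, only -0.71 was beyond the gauge. The other 3 Egfr probe sets were below the floor on all arrays, and their tumor against gland differences were between -1.40 and -0.30. All 5 probe sets thus gave Egfr as lower in tumor than in gland in both genotypes on the deposited scale, but in KO mice the brightest one turned to 0.27 with a common median and to 0.04 with quantile normalization. Of the 5, only the dim 1432647_at and 1454313_at passed 2-fold, and they did so in KO mice alone. By the mean of all probe sets the Egfr difference was -0.83 in KO mice and -0.57 in WT mice. That mean includes the 3 dim probe sets, at a level where the gland arrays read higher in general. The lower quartile of signals was 17.9 in the KO tumor and 18.5 in the WT tumor, against 44.2 in the KO gland and 34.6 in the WT gland. By rank, 1451530_at was higher in the WT tumor, at percentile 28.8 against 26.7 in the WT gland, while the other dim values stayed lower in tumor.

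**Figure D1:**
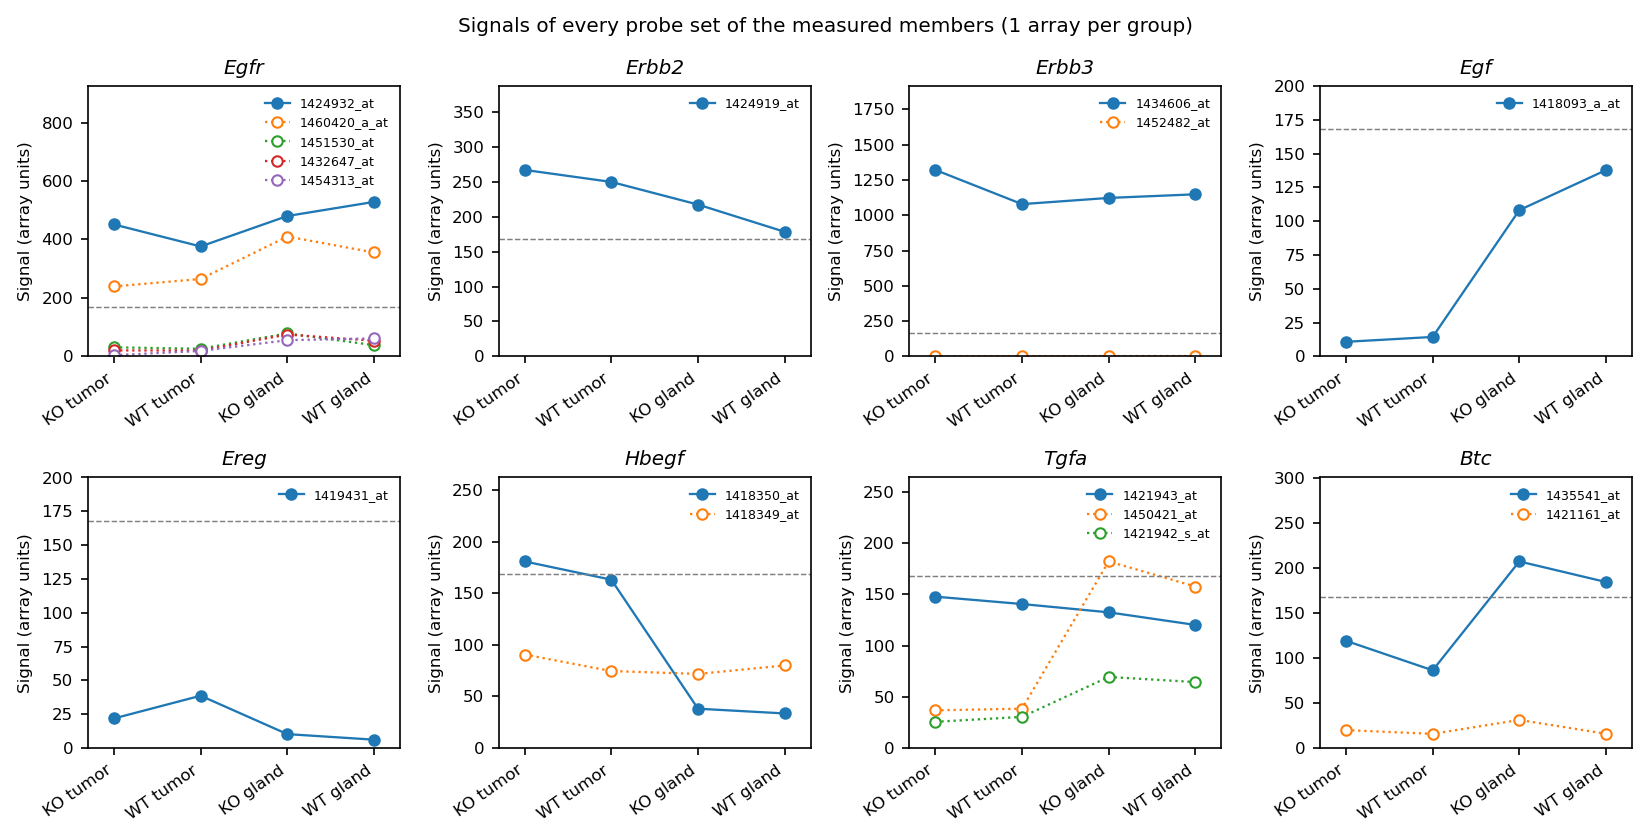
Signal (array units, linear axis from 0) of each of the 17 probe sets on the 4 arrays, 1 panel per gene. Filled points joined by a solid line are the probe set that stands for the gene, open points the others, the dashed line is the floor of 168.1, and the joining lines only guide the eye. Hbegf 1418350_at is higher in both tumors than in the glands, and Egf and Tgfa 1450421_at are higher in both glands than in the tumors. Erbb3 is nearly level.

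Among the ligands, Hbegf was higher in the tumors by 1 of its probe sets. Hbegf, the heparin-binding ligand that is released quickly from epithelial cells after injury, had signals by 1418350_at of 180.7 in the KO tumor and 163.0 in the WT tumor, against 38.0 in the KO gland and 33.4 in the WT gland. The tumors were 3.19-fold higher in KO mice and 3.14-fold higher in WT mice. The other probe set, 1418349_at, had signals of 90.5 in the KO tumor, 74.5 in the WT tumor, 71.7 in the KO gland and 79.9 in the WT gland. It thus gave differences of 0.25 in KO mice and -0.07 in WT mice, both within the gauge. The probe sets of Hbegf disagree by more than the gauge, and the mean of both was 0.96 in KO mice and 0.79 in WT mice, short of 2-fold. With an offset of 1 the second probe set stood for the gene, and the WT difference was then -0.10.

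Egf was lower in the tumors. Egf, the founding ligand of the family, had signals of 10.8 in the KO tumor and 14.4 in the WT tumor, against 108.2 in the KO gland and 137.8 in the WT gland. Its single probe set was 3.56-fold lower in KO mice and 3.96-fold lower in WT mice. Both tumors lay below both glands, but all 4 signals were below the floor and the size of the fold depends on the offset. With an offset of 1 the log2 difference was -3.21 in KO mice and -3.17 in WT mice, and with an offset of 168.1 it was -0.63 and -0.75.

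In the mouse, Egf is known as a product of the submandibular salivary gland, and salivary-type genes were bright on 1 gland array. Of 13 such genes, 11 were measured, and their summed signal was 3389.6 in the KO gland against 31882 in the WT gland, with 9 of the 11 lower by at least 2-fold in the KO gland. Egf differed by -0.29 between these glands, slightly beyond the gauge of 0.24. The Egf difference was larger under the between-array normalizations, at -0.49 with a common median, -0.59 with quantile normalization and -0.50 with cyclic loess. In the KO gland 1 of the 11 genes reached the floor, the amylase Amy1 at 3176.5. Egf was 3.56-fold lower in the KO tumor than in that gland. The part of the salivary-type genes in the Egf level was not tested.

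Btc, betacellulin, was likewise lower in the tumors, by less than 2-fold. Its probe set 1435541_at had signals of 119.0 in the KO tumor and 86.2 in the WT tumor, against 207.2 in the KO gland and 184.3 in the WT gland. Both glands were above the floor and both tumors below it. The tumor against gland difference was -0.68 in KO mice and -0.90 in WT mice, both beyond the gauge. The KO value lay within it, between -0.39 and -0.25, under an offset of 168.1, a common median, quantile normalization and cyclic loess. The dim probe set 1421161_at, with signals between 15.6 and 31.1, gave -0.31 and 0.00.

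Tgfa, the ligand closest to Egf in its action on EGFR, had 3 probe sets that did not behave alike. The one that stood for it, 1421943_at, had signals of 147.7 in the KO tumor, 140.5 in the WT tumor, 132.4 in the KO gland and 120.1 in the WT gland, and no neighbours in that order differed beyond the gauge. By 1450421_at the signals were 36.7 and 38.3 in the KO and WT tumor, against 182.1 and 157.6 in the KO and WT gland. That probe set was 3.27-fold lower in the KO tumor and 2.82-fold lower in the WT tumor than in the gland of the same genotype. The third, 1421942_s_at, went the same way with differences of -0.87 and -0.67. The direction of Tgfa between tumor and gland therefore depends on the probe set, and the mean of all 3 was -0.82 in KO mice and -0.66 in WT mice.

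Ereg, epiregulin, a ligand of both EGFR and ErbB4, was dim everywhere. It had signals of 21.8 in the KO tumor and 38.6 in the WT tumor, against 10.2 in the KO gland and 6.1 in the WT gland, between percentiles 9.52 and 32.9 of their arrays. The tumors lay above the glands by 0.39 in KO mice and 0.98 in WT mice. Of these the second was beyond the gauge and just short of 2-fold, and it passed 2-fold with an offset of 1, a common median, quantile normalization and cyclic loess. Ereg and Btc lie in 1 cluster of ligand genes in the RefSeq annotation, in the order Epgn, Ereg, Areg, Btc with no other protein-coding gene between them. Within that cluster Ereg was higher and Btc lower in the tumors, and Epgn, also below the floor on every array, differed by -0.15 in KO mice and 0.57 in WT mice.

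The promoters of Egf, Btc and Tgfa are shown because each of these ligands had a probe set that was lower in both tumors. Each sequence is the RefSeq window of 250 bases before and 50 bases after a gene start in GRCm38.p6, on the gene's own strand. Of the 8 measured members, the windows of Egfr, Erbb2, Egf, Tgfa and Btc were searched, and Erbb3, Ereg and Hbegf were left out. The motifs searched on both strands were the AP-1 motif TGACTCA, the CRE motif TGACGTCA and the GC box GGGCGG, and capitals mark a match. The Egf window is at chr3:129755273-129755572 on the minus strand, that of Btc at chr5:91402945-91403244 on the minus strand, and that of Tgfa at chr6:86194972-86195271 on the plus strand.
Egf: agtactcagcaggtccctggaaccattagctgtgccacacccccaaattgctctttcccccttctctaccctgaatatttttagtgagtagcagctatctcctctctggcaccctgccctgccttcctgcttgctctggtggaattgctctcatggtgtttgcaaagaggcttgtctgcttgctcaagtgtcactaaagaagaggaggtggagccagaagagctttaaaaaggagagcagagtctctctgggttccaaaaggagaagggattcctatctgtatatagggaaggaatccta
Btc: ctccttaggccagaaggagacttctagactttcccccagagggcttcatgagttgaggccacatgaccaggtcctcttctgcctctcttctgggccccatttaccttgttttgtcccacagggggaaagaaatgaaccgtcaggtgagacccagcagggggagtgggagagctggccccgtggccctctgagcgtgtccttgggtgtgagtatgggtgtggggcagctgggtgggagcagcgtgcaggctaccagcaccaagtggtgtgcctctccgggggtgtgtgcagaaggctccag
Tgfa: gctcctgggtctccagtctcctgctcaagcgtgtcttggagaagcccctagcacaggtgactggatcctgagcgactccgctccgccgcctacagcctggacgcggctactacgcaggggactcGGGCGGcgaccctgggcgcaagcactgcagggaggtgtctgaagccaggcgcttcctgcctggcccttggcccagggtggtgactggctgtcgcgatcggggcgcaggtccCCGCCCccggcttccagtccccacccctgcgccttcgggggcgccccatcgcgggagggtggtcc
The Egf and Btc windows held none of these letters, and that of Tgfa held 2 GC boxes. The windows also differed in CG dinucleotides, with 0 in this Egf window, 5 in that of Btc and 24 in that of Tgfa, where the median over all windows was 7. A second Egf start had 17. The Egfr window held 1 GC box and 15 CG dinucleotides, and that of Erbb2 no motif and 21. Over 32851 windows, the AP-1 letters were in 5.2%, the CRE letters in 1.79% and the GC box in 35.7%. A match is a description of the letters only.

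The comparison of KO with WT tumors asks whether these genes differed in tumors that arose without Sca-1. No member did so by 2-fold. Of the 8 measured members 0 were called in either direction, where 3.64% of all 12394 named genes were called, 1.84% higher and 1.8% lower. With the floor, 0 of 5 members were called, beside 4.07% of 8283 genes. Their differences were between -0.42 for Ereg and 0.37 for Btc, with a median of 0.11 beside 0.01 over all genes. Of the 8, 4 lay within the gauge. Erbb3, at 0.29, and Egfr, at 0.25, were beyond it, but the second Egfr probe set had the opposite sign at -0.13. Markers of squamous epithelium, a tissue in which several of these ligands act, had a summed signal of 1517.9 in the KO tumor against 7644 in the WT tumor, with 6 of 11 measured lower by at least 2-fold. Beside that shift, Hbegf differed by 0.13 and Tgfa by 0.06 between the tumors, and Ereg, the member with the largest difference, had both signals below the floor.

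In the glands, which asks the same of tissue without a tumor, no member differed by 2-fold between KO and WT either. Of the 8 members 0 were called, where 1.46% of all genes were called, 1.19% higher and 0.274% lower. With the floor, 0 of 5 were called, beside 1.36%. The differences were between -0.29 for Egf and 0.25 for Erbb2, and 6 of 8 lay within the gauge. The median was 0.11 beside 0.04 over all genes, and it was negative under the common median, quantile normalization and cyclic loess. Leukocyte markers had a summed signal of 12261 in the KO gland against 8019.4 in the WT gland, with 3 of 9 measured higher by at least 2-fold. Among single probe sets the largest difference was that of the dim Egfr probe set 1451530_at, with signals of 78.7 in the KO gland and 38.5 in the WT gland and a difference of 0.69, which the brightest Egfr probe set, at -0.13, did not share.

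The genotype differences in tumor and gland were also set against each other. Of the 8 members 0 reached a 4-fold difference of differences, where 0.863% of all genes did, and with the floor 0 of 5, beside 1.05%. The largest was that of Ereg, at -0.59, from signals that were all below the floor.

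**Figure D2:**
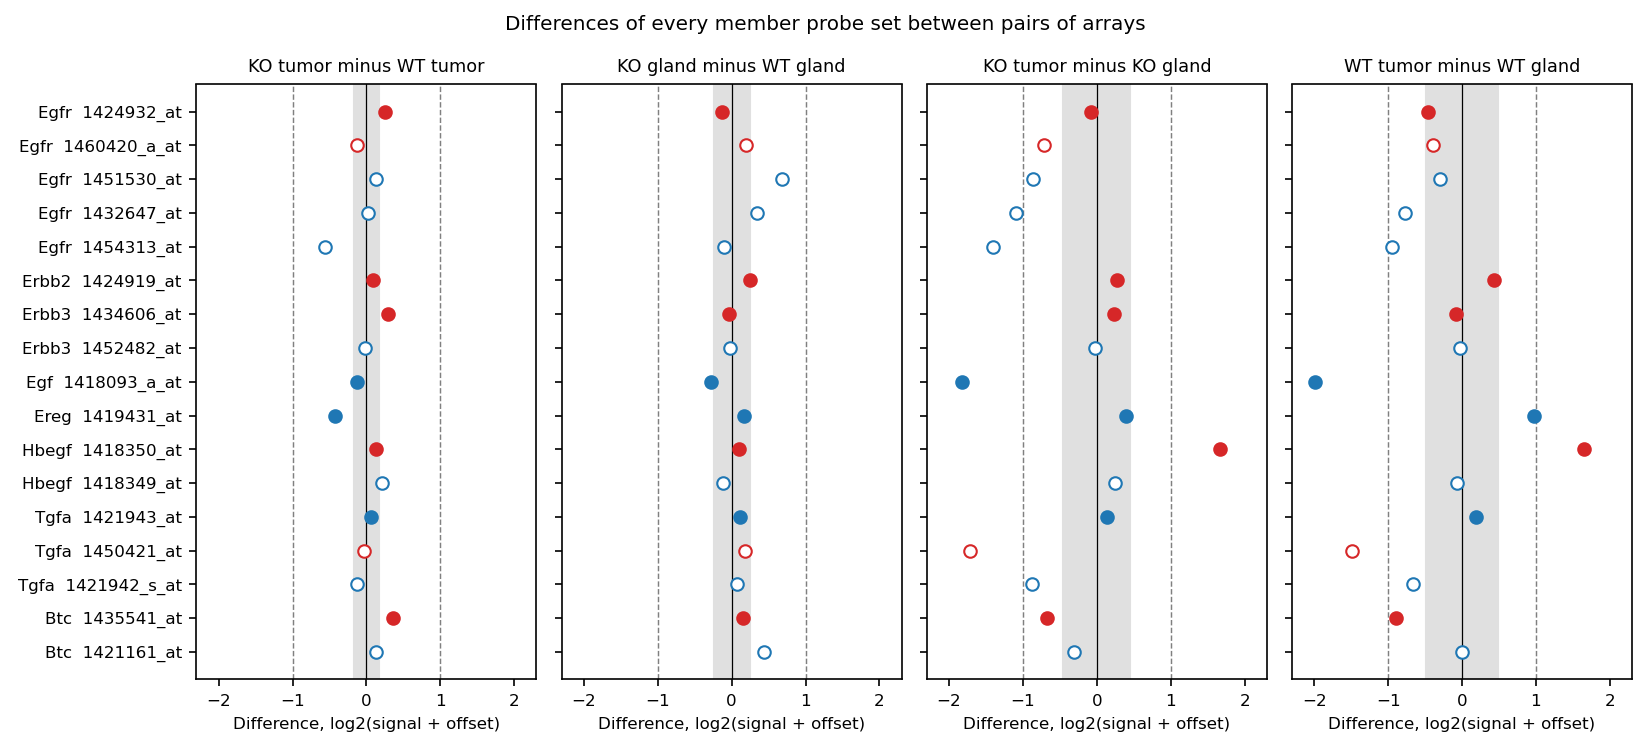
Differences on the log2(signal + 27.3) scale for each of the 17 probe sets, 1 panel per pair of arrays. Filled points stand for their gene, red points reach the floor on some array and blue points on none, the grey band is the gauge and dashed lines mark 2-fold. In the panels of KO against WT all points lie within 2-fold, and in those of tumor against gland Hbegf, Egf and Tgfa have probe sets beyond it, and in KO mice also 2 dim probe sets of Egfr.

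The comparison of tumor with gland was made within each genotype, on separate pairs of arrays. In KO mice 1 of 8 members, Hbegf, was higher by at least 2-fold and 1, Egf, was lower, where 9.36% of all genes were higher and 18.4% lower, 27.8% in all. In WT mice the same 2 members were called, where 9.88% of all genes were higher and 15.7% lower, 25.6% in all. The share of members called, 2 of 8, was close to that of all genes in both genotypes. With the floor, which Egf did not reach, 1 of 5 members was called in each, beside 30.2% of genes in KO mice and 29.4% in WT mice. That member, Hbegf, reached the floor on the KO tumor array alone, where it was high, so nothing is read from this count. The median over the members was 0.18 in KO mice and 0.05 in WT mice, beside -0.17 and -0.13 over all genes. With the mean of the probe sets in place of the brightest one, the medians were -0.20 and -0.25, so the sign of the members' median depends on the probe sets. In WT mice it was also negative, at -0.09, with an offset of 1 and with the floor. Of the 17 probe sets, 1 was higher and 4 were lower by at least 2-fold in KO mice, and 1 and 2 in WT mice.

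**Figure D3:**
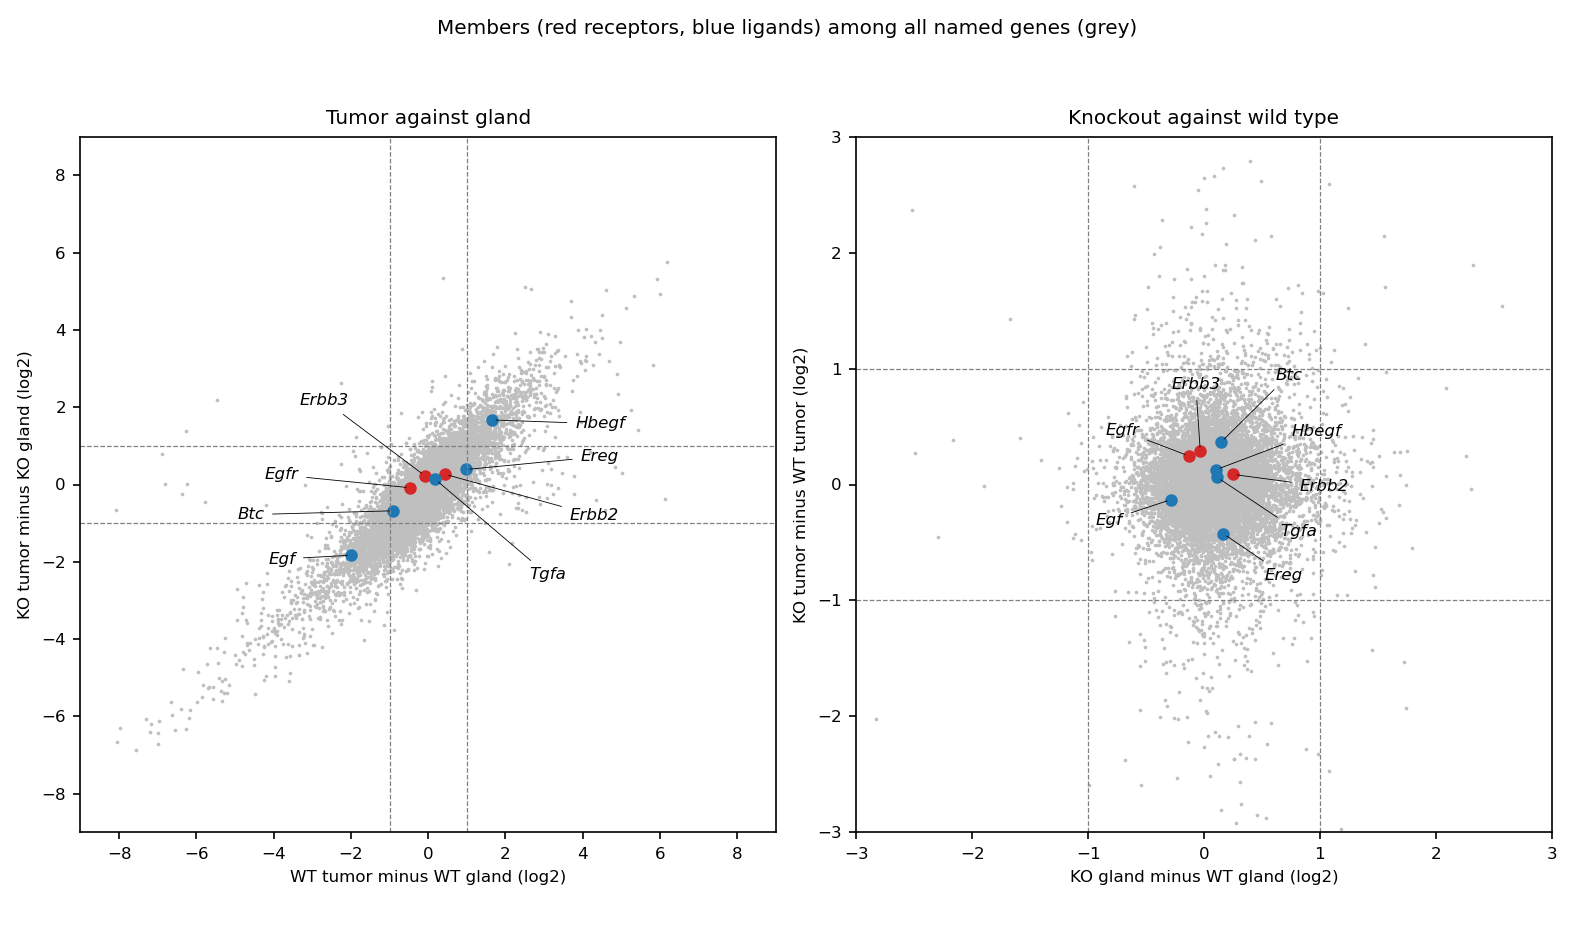
Each point is a gene, grey for all named genes, red for receptors and blue for ligands, on log2 scales with dashed lines at 2-fold. The left panel sets tumor minus gland in KO mice (vertical) against WT mice (horizontal), and the right panel sets KO minus WT in tumor (vertical) against gland (horizontal), where 28 genes beyond 3 on either axis are not drawn. Hbegf and Egf stand beyond 2-fold on the left, and all members stand inside 2-fold on the right.

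By shape over the 4 arrays, each gene's log2 values were centred on their mean and compared with those of the members. Hbegf and Btc were bright and variable enough for this. The genes most like Hbegf were Lmna, a lamin of the nuclear envelope, and St14, the membrane protease matriptase, with root mean square differences of 0.04 and 0.04 over 4 arrays. Lmna had signals of 2210 in the KO tumor and 2015.9 in the WT tumor, against 664.4 in the KO gland and 658.6 in the WT gland. Those most like Btc were Nomo1, at 0.01, and Slc52a3, a riboflavin transporter, at 0.02. This likeness rests on 4 points per gene.

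The rest of the pathway was described from lists of 81 genes, of which 65 were measured. Between the KO and WT tumors 1 of the 65 was higher and 0 were lower by at least 2-fold, beside 1.84% and 1.8% of all genes. Between the glands 0 were called, beside 1.46%. The 1 gene was Etv4, an ETS transcription factor downstream of Ras-MAPK, with signals of 103.2 in the KO tumor and 13.8 in the WT tumor, both below the floor. Between tumor and gland 11 of the 65 were higher and 8 lower, in each genotype. These are 16.9% and 12.3%, beside the shares of all genes given above.

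The family genes outside the set were mostly dim. Of 4 measured, only Nrg4, a neuregulin that binds ErbB4, reached the floor. It had signals of 198.1 in the KO tumor and 168.3 in the WT tumor, against 620.9 in the KO gland and 619.7 in the WT gland, 2.88-fold lower in the KO tumor and 3.31-fold lower in the WT tumor. Nrg4 is known as a factor secreted by fat. The adipocyte and skeletal muscle markers above were both lower in the same tumors. The part of either tissue in the Nrg4 level was not tested. Erbb4, the remaining receptor, had signals between 1.3 and 5.5, as values chosen after they were seen.

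Of 10 measured genes of ligand shedding, 1 was higher and 2 were lower in the KO tumor than in the KO gland, and 2 and 1 in the WT pair. The shares of all genes were 9.36% higher and 18.4% lower in KO mice, and 9.88% and 15.7% in WT mice. Adam15, a membrane metalloprotease, was 3.14-fold lower in the KO tumor and 3.38-fold lower in the WT tumor, and its 3 other probe sets were lower too. Adam12, another of these proteases, was 2.81-fold lower in the KO tumor. Timp3, an inhibitor of ADAM17, was 2.39-fold higher in the WT tumor than in the WT gland, and its 3 other probe sets were higher by more. In the KO pair its brightest probe set differed by 0.15, and the 3 others by -0.63, 1.42 and 1.70. Bace1, a protease that cleaves neuregulins, was 3.37-fold higher in the KO tumor and 4.01-fold higher in the WT tumor by its brightest probe set, while its 3 other probe sets gave differences between -1.02 and 0.99.

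Of 9 measured genes that restrain the receptors, 2 were higher by at least 2-fold in the KO tumor than in the KO gland and 4 in the WT tumor than in the WT gland, beside 9.36% and 9.88% of all genes. None was lower by 2-fold by the probe set that stood for it. In KO mice Rnf41, a ubiquitin ligase of ErbB3, differed by -0.93, but its other probe sets gave 0.44 and -0.30. Errfi1, an inhibitor of the EGFR kinase, differed by -0.60 there, and its other probe set by -1.52, past 2-fold. Socs3, a suppressor of cytokine signalling, was 3.61-fold higher in the KO tumor and 2.54-fold in the WT tumor. Socs5, a relative that promotes the breakdown of EGFR, was 2.35-fold and 2.79-fold higher. In the WT pair Ptpn1, a tyrosine phosphatase, and Cbl, the ubiquitin ligase of activated EGFR, were 2.52-fold and 2.28-fold higher. In the comparisons called, the other probe sets of these genes had the same sign, mostly short of 2-fold. In the KO pair they gave 1.06 and 0.84 for Socs3 and 0.44 for Socs5. In the WT pair they gave 0.09 and 0.44 for Socs3, 0.62 for Socs5, 0.08 for Ptpn1 and 0.50 for Cbl. Those at 0.44 or less lay within the gauge, so they do not bear out the size of the difference. The list median was 0.23 in KO mice and 0.69 in WT mice. Of 7 feedback genes of the MAPK pathway, 2 were lower in each genotype, beside 18.4% of all genes in KO mice and 15.7% in WT mice, and 0 were higher. Their median was 0.14 in KO mice and -0.20 in WT mice, and in KO mice Spred1, Dusp6 and Spry2 differed by 0.94, 0.92 and 0.89, just short of 2-fold. The phosphatase Dusp1 was 2.77-fold lower in the KO tumor and 2.55-fold lower in the WT tumor, and Spry1, an inhibitor of Ras signalling, 2.26-fold and 2.76-fold lower.

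Among adaptors, which link the receptors to Ras, 1 of 12 was higher and 1 lower in the KO pair, Gab1 by 2.08-fold and Shc1 by 2.10-fold, though a further Gab1 probe set gave -0.19. In the WT pair 1 was lower, Grb7, an adaptor of ErbB2, by 2.37-fold. Beside this list and the others of this paragraph, 9.36% of all genes were higher and 18.4% lower in KO mice, and 9.88% and 15.7% in WT mice. Of 5 measured Ras-MAPK genes, only the kinase Araf was called, 2.39-fold lower in the KO tumor and 2.09-fold lower in the WT tumor. Of 6 PI3K-Akt genes, Pik3r1, the regulatory subunit of PI3K, was 6.50-fold higher in the KO tumor and 5.99-fold higher in the WT tumor, and its 2 other probe sets had the same sign. Akt2 was 3.62-fold lower in the KO tumor and 4.98-fold lower in the WT tumor, and its other probe set was lower as well. Pdpk1, the kinase that activates Akt, was 2.06-fold lower in the WT tumor by its brightest probe set and higher by 1.56 on the log2 scale by the other.

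Genes that EGF is known to induce, which many other signals induce too, had the highest median of these lists in KO mice, at 0.89 beside -0.17 for all genes, while in WT mice theirs was 0.62 beside -0.13. Of 12 measured, 6 were higher in the KO tumor than in the KO gland, 4 were higher in the WT tumor than in the WT gland, and 0 were lower in either, beside 9.36% and 9.88% of all genes higher. Phlda1, an early response gene, had signals of 5494.7 in the KO tumor and 6034.3 in the WT tumor, against 1073.4 in the KO gland and 1114.1 in the WT gland. Ier3, an immediate early gene, was 4.51-fold higher in the KO tumor and 3.94-fold higher in the WT tumor. Ccnd1, the G1 cyclin downstream of Ras-MAPK, was 3.32-fold and 3.69-fold higher, and its 2 other probe sets were higher by more. Jun, part of the AP-1 factor, was 2.72-fold higher in the WT tumor, while its other probe set gave 0.51 on the log2 scale. The 6 genes of the KO pair include Etv4, with signals of 103.2 in the KO tumor and 16.1 in the KO gland, both below the floor. They also include Egr1, just past 2-fold at 1.01. The luminal and basal marker sums given above were higher in the same tumors, and their part in these differences was not tested.

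**Figure D4:**
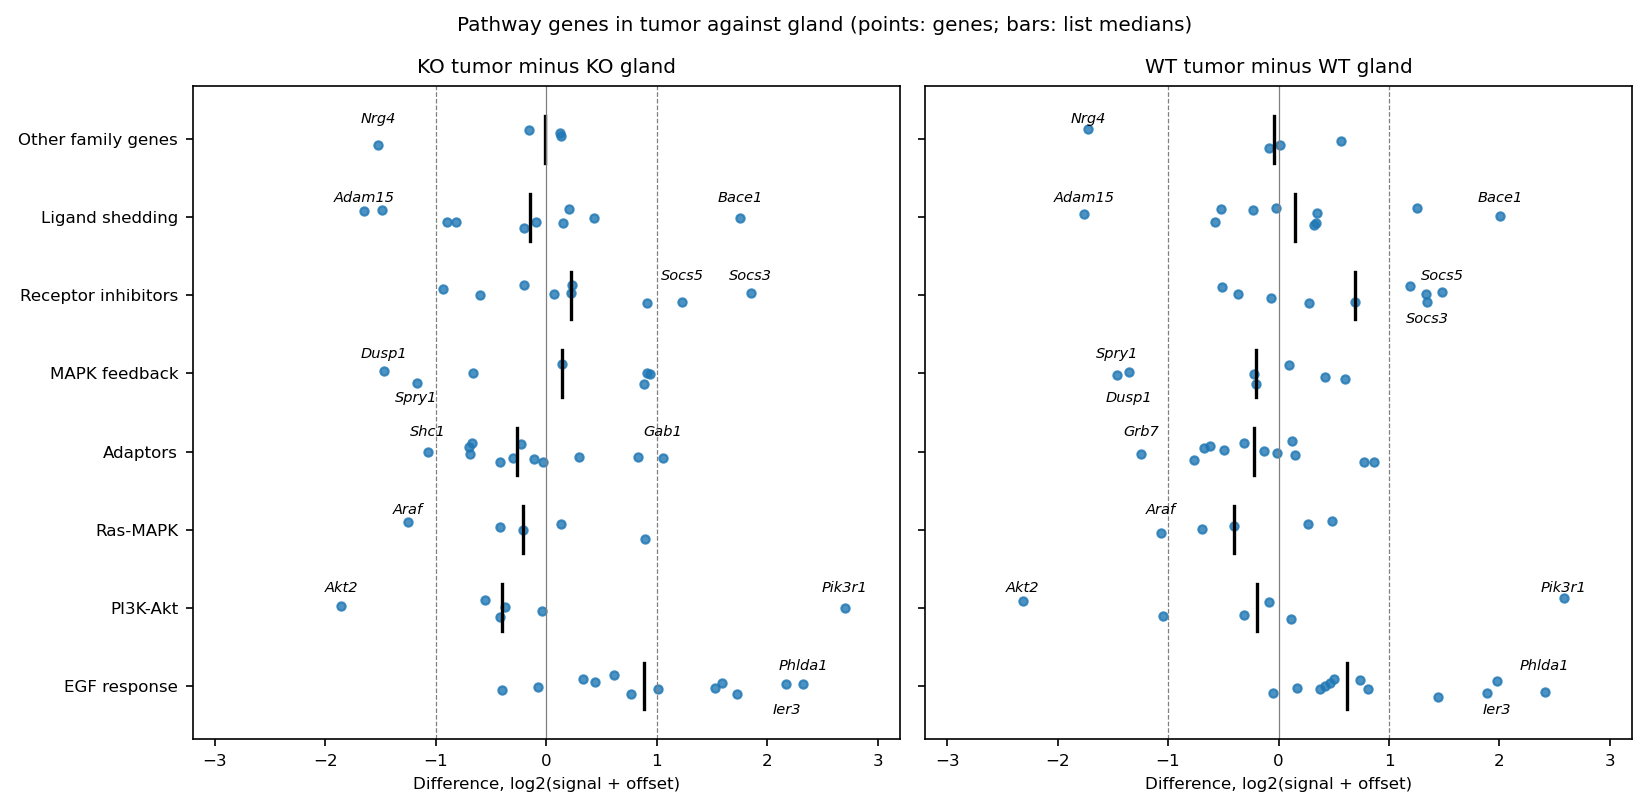
Tumor minus gland in KO mice (left) and WT mice (right) on the log2(signal + 27.3) scale for the measured genes of 8 pathway lists. Each point is a gene, offset at random in height, black bars are list medians, dashed lines mark 2-fold, and up to 2 genes past it are named per list. In the EGF response list Phlda1 and Ier3 lie farthest to the right, and Pik3r1 and Akt2 lie far apart in the PI3K-Akt list.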

How the data were processed

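The deposited values were intensity values, 1 linear signal per probe set and array, from Affymetrix arrays of biotin-labelled cRNA, per the labels' protocols. For their software, a name was not given in the sources used here. With 2% of probe sets trimmed at each end, every array of the authors' deposited intensity table averaged 500.1 or 500.2, a scaling common to all arrays. Values were used as deposited. Gene symbols came from the platform annotation, updated by gene identifier for 20364 probe sets. Of 22690 probe sets, 20393 had 1 symbol, 691 had several and were not used, and 1606 had none. The offset of 27.3 is the lower quartile of all values. Counts were made over all named genes with no floor. With 1 array per group no p-value is given. The members and lists were chosen with earlier results of these data known. The named genes were the members, up to 4 genes past 2-fold per pathway list and comparison, and the 2 genes most like a variable member. The Y-linked genes, Epgn and Erbb4 were added after values were seen. Alternatives were 2 other offsets, a common median, quantile normalization and cyclic loess (limma 3.58.1), the mean of probe sets, leaving out probe sets whose IDs mark shared transcripts where a gene had others, and a floor. Analysis used pandas 2.3.3.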

Additional observations from a re-analysis of the deposited data

How the results depend on the processing

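Under each of the 8 alternatives no member was past 2-fold between KO and WT, in tumor or gland, and none was past 4-fold in the difference of differences. The 2 members called between tumor and gland became 0 in both genotypes with an offset of 168.1, and 1 in both with the mean of probe sets (Egf) and with the floor (Hbegf, with 5 members left). In KO mice the count was 2 under the 5 other alternatives, with Ereg in place of Hbegf at an offset of 1. In WT mice it was 2 without shared probe sets and 3 under the other 4, which added Ereg, and at an offset of 1 held Btc in place of Hbegf. Hbegf turned to -0.10 in WT mice with an offset of 1, since its other probe set then stood for the gene, and was 0.33 in KO mice. Over the alternatives, 210 of 244 values of single members moved by less than the gauge, and 21 had the opposite sign, of which 1, that of Hbegf in WT mice, had been past 2-fold. A common median moved the median of all genes to -0.15 in the glands, in place of 0.04, and to 0.06 for tumor against gland in KO mice, in place of -0.17. No paired analysis was possible because each group is 1 array. Most member signals lie below the floor, where folds depend on the offset, and no value here covers the spread between mice.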

Other observations

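Timp3, the inhibitor of ADAM17 in the list of ligand shedding, was lower in the KO tumor than in the WT tumor by all its probe sets, as noticed after its values were seen. Its brightest probe set had signals of 3074.6 in the KO tumor and 5920.3 in the WT tumor, and the log2 differences of its 4 probe sets were -0.91, -0.94, -1.04 and -1.07. Between the KO and WT gland the same probe sets gave 0.79, 0.17, 1.05 and 1.25, the reverse sign. The value of 0.17, that of the brightest probe set, lay within the gauge of 0.24, so that probe set does not bear out a reversal. The difference of differences was -1.11 for the brightest probe set and between -2.31 and -1.70 for the others. Fibroblast markers moved alongside. Their summed signal was 16046 in the KO tumor against 25524 in the WT tumor, with 8 of 8 lower in the KO tumor, and 36443 in the KO gland against 30002 in the WT gland, with 6 of 8 higher in the KO gland. Of the 9 basal and myoepithelial markers, 2 were lower by at least 2-fold in the KO tumor, Myh11 at -1.38 and Cnn1 at -1.19. In the same list 1, Krt17, was higher, at 1.28. Mylk, also of this list, differed by -0.88 between the tumors, short of 2-fold. The smooth muscle actin Acta2 differed by 0.06 between the tumors, and the list median was 0.06. Between the glands Myh11, Cnn1, Krt17, Mylk and Acta2 differed by 0.28, 0.11, 0.33, 0.15 and -0.03. The part of fibroblasts or myoepithelial cells in the Timp3 level was not tested. With 1 array per group the Timp3 difference itself could not be tested. ADAM17 releases several EGFR ligands from the cell surface, and whether ligand release differed was not measured here.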
